A study of Mus musculus with 6 samples.

Results

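The fibril-associated and other minor collagens described here are 8 genes, *Col7a1*, *Col8a1*, *Col12a1*, *Col13a1*, *Col14a1*, *Col16a1*, *Col23a1* and *Col26a1*. They were chosen by gene family and symbol and are 8 of the 49548 genes in the count table. The mRNA of native cardiac fibroblasts (CFs) was sequenced in 3 WT and 3 CharmeKO libraries from mice aged 5 weeks. Native CFs were obtained per the study's methods by dissociating the heart, lysing red cells and depleting hematopoietic lineage cells with antibodies and magnetic beads. The methods describe both the WT and the CharmeKO mice as C57BL/6J. CharmeKO mice carry a poly(A) signal inserted in the locus of *Charme*, a long noncoding RNA of muscle cells, in all cells rather than in fibroblasts alone. The labels also list a growth medium for these libraries, whereas the methods describe freshly isolated cells, and they do not give the sex of the mice. The labels number the libraries of each genotype without saying whether they came from separate animals, so p-values measure only the spread between these libraries.

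Collagens are trimers whose chains wind into a triple helix, which requires repeats of a glycine followed by a pair of other residues. The fibrillar collagens, such as types I and III, have a long helix without breaks and form the fibers of the cardiac interstitium. Fibril-associated collagens sit on the surface of those fibers through short helices and extend large noncollagenous domains from it. Other minor collagens form networks, anchor basement membranes or cross the plasma membrane.

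The coding sequences of the 8 genes show these broken helices. The stretches below are 60 coding bases each, taken from the start of the longest run of glycine repeats in the longest complete coding sequence of the gene (GENCODE M21 annotation of GRCm38, 5′ to 3′). Capitals mark the glycine codon, GGN, that opens each repeat of 3 codons, and a glycine codon at another place in a repeat stays in lower case.

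Col12a1: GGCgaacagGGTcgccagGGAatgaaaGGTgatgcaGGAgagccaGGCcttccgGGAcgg
Col14a1: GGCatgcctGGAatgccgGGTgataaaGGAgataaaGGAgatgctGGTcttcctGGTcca
Col16a1: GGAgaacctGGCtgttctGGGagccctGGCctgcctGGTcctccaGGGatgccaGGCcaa
Col8a1: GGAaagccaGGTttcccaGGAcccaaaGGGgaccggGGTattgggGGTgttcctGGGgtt
Col13a1: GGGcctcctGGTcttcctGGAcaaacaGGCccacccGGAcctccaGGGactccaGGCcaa
Col23a1: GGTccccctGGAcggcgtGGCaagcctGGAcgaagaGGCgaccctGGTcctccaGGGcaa
Col7a1: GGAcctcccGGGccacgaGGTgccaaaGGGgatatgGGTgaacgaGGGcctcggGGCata
Col26a1: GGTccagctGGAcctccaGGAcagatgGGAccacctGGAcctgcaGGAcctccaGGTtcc

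Counted from the start codon, the stretch of *Col12a1* covers codons 2805 to 2824, that of *Col14a1* codons 1517 to 1536, that of *Col16a1* codons 1006 to 1025 and that of *Col8a1* codons 352 to 371. The stretch of *Col13a1* covers codons 468 to 487, that of *Col23a1* codons 110 to 129, that of *Col7a1* codons 2518 to 2537 and that of *Col26a1* codons 199 to 218. Runs of at least 5 such repeats made up 7.63% of the 3065 codons of *Col12a1* and 13.0% of the 1798 codons of *Col14a1*, both with a longest run of 32 repeats. *Col26a1*, the shortest at 440 codons, had 2 runs with 34 repeats in all, or 23.2% of its codons. The runs took up 40.7% of *Col8a1*, 40.6% of *Col7a1*, 57.5% of *Col16a1*, 69.4% of *Col23a1* and 70.6% of *Col13a1*. The share of codons in runs for fibrillar *Col1a1*, 73.3%, lay above all 8, and its longest run had 338 repeats against at most 75 in the minor collagens. The plot of glycine repeats along the coding sequences shows where these runs lie in each gene.

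**Figure D1:**
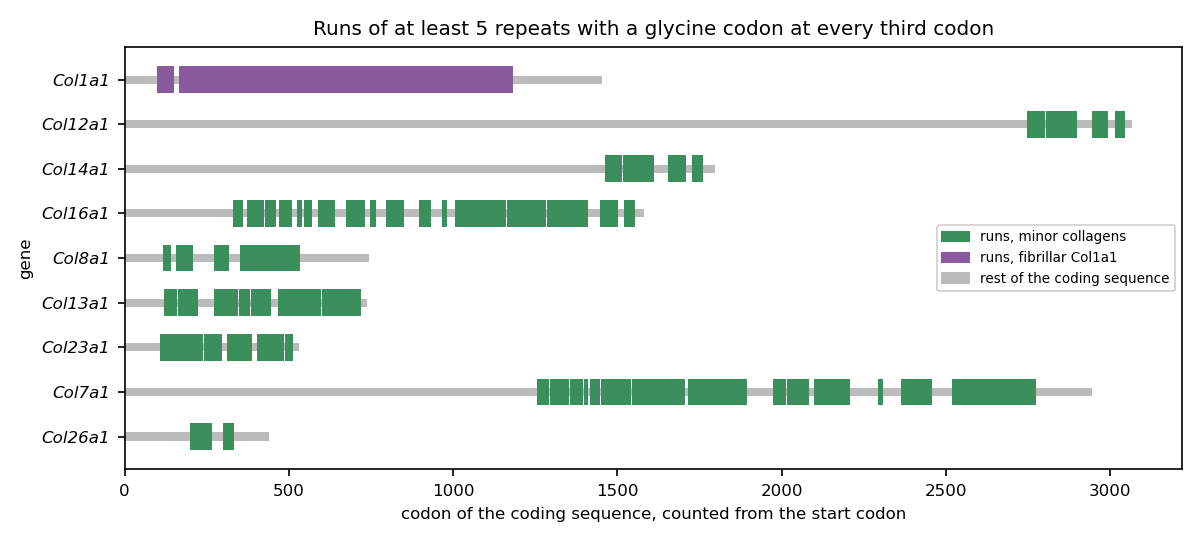
Position of runs of at least 5 glycine repeats (colored blocks) along the coding sequence (grey bar) of the 8 minor collagen genes and of fibrillar *Col1a1*, in codons from the start codon. *Col1a1* has 2 runs that cover most of its length, *Col7a1* and *Col16a1* have 16 and 17 separate runs, and the 2 runs of *Col26a1* hold 34 repeats.

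The reads counted on genes numbered 9595701 to 42101393 per WT library and 23550718 to 31048606 per CharmeKO library. Levels are given as CPM, in which a count is divided by its library's total and multiplied by 1000000, after TMM normalization has corrected the totals for differences in library composition. A count of 0 allows up to 3 counts, or 0.0705 to 0.323 CPM, which covers counting error only. *Charme* itself had 26, 15 and 4 counts in WT and 7, 0 and 0 in CharmeKO. WT replicate 1 and CharmeKO replicates 1 and 2 had *Xist* at 376 to 473 CPM, whereas the other 3 libraries had at most 2.55 CPM, so the libraries also split by this female-specific RNA. *Ddx3y*, a gene of the Y chromosome, had 0, 1502 and 514 counts in WT and 59, 0 and 1479 in CharmeKO. CharmeKO replicate 1 thus had high *Xist* together with some *Ddx3y* reads, and WT replicate 2 had 67 *Xist* counts beside high *Ddx3y*. WT replicate 2 stood apart from the other 5 libraries on the second principal component, which held 24.8% of the variance. As a check of the labelled cell type, the 8 fibroblast identity genes summed to 24532 to 33192 CPM, 9 endothelial genes to 9558 to 14114 CPM and 5 erythroid genes to 24411 to 39207 CPM. Most of the fibroblast sum came from *Gsn*, at 17340 to 26456 CPM. Without *Gsn* and *Lamb1*, the other 6 fibroblast genes summed to 5317 to 6218 CPM, below the endothelial genes in every library. Such sums over different genes do not give the share of each cell type.

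All 8 genes were expressed above the limit for testing, at least 10 counts in at least 2 libraries. Per kb of the longest annotated transcript, *Col14a1* had the highest level, 65.1 CPM per kb (44.0 to 77.7 over the 6 libraries), followed by *Col8a1* at 59.1 CPM per kb (40.2 to 72.7). These ranges overlapped, so the order of the 2 genes is not settled. *Col16a1* came next at 30.4 CPM per kb (23.4 to 36.5) and *Col26a1* at 7.57 CPM per kb (3.19 to 12.3), with ranges clear of their neighbours. *Col12a1* at 1.75, *Col13a1* at 1.64 and *Col23a1* at 1.20 CPM per kb did not differ beyond the ranges of adjacent genes. *Col7a1* had the lowest level, 0.276 CPM per kb (0.185 to 0.430). The order thus ran from the fibril-associated type XIV and the short-chain type VIII at the top to the anchoring type VII at the bottom.

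The question of the comparison was which collagen genes differ between CharmeKO and WT fibroblasts. It was tested in edgeR's quasi-likelihood model over 15789 genes, and a gene was called at a p, adjusted by the Benjamini-Hochberg method over all of them, under 0.05. Of the 8 minor collagens, 1 passed lower in CharmeKO and 0 passed higher, against 0.412% and 0.418% of all tested genes. The gene that passed was *Col26a1*. The remaining 7 genes had log2 fold changes between −0.56 and 0.27, and each of their confidence intervals included 0. The median over the 8 genes was 0.038 on the log2 scale, beside 0.0096 over all tested genes. These are bulk libraries, in which fewer cells of a type and less RNA per cell cannot be told apart.

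**Figure D2:**
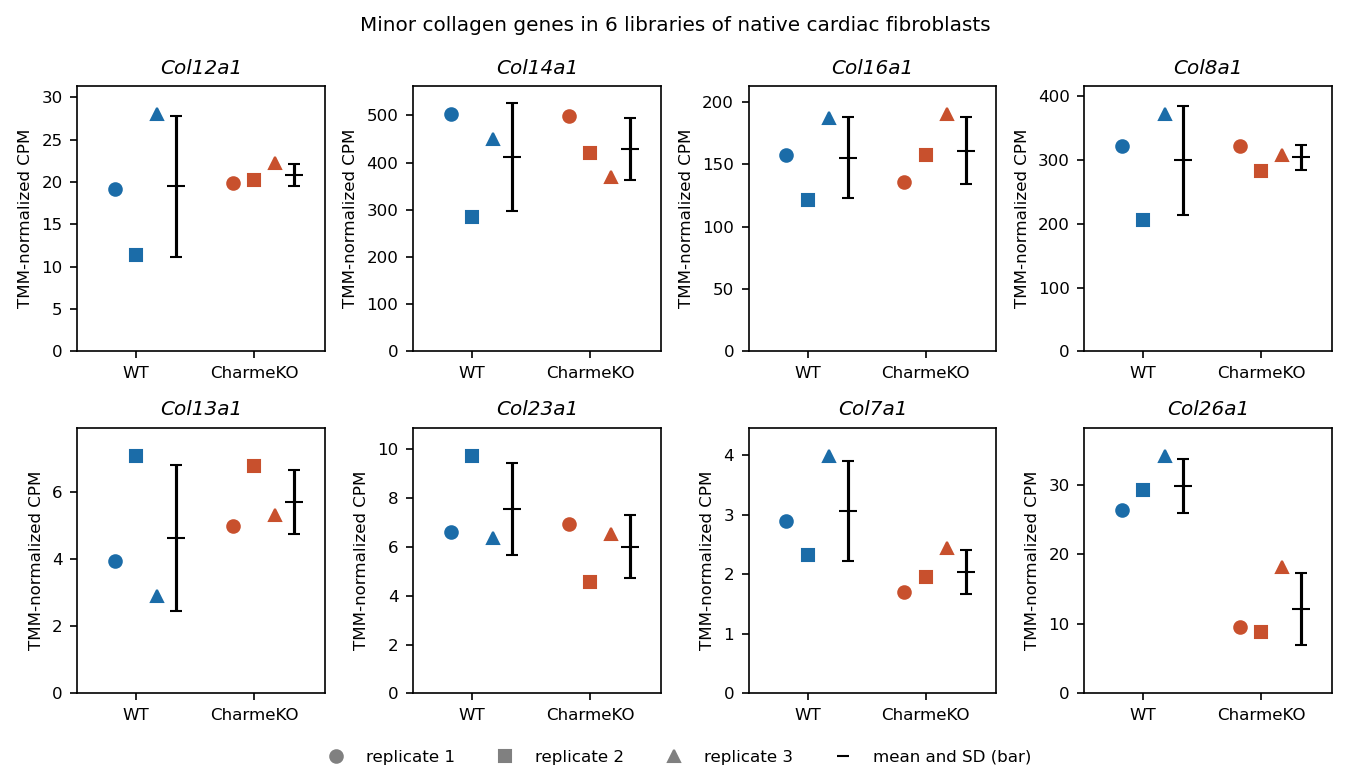
Levels of the 8 minor collagen genes in TMM-normalized CPM (linear axes from 0) in the 3 WT (blue) and 3 CharmeKO (red) libraries, with symbols for the replicate and black bars for the mean and SD. Only *Col26a1* has all 3 CharmeKO libraries, at 8.88 to 18.2 CPM, below all 3 WT libraries, at 26.4 to 34.1 CPM.

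Types XII, XIV and XVI are the fibril-associated members of the group. Type XIV, which binds the surface of collagen I fibrils and limits their growth, is encoded by *Col14a1* (ENSMUSG00000022371, chromosome 15). *Col14a1* was measured at 502, 284 and 450.0 CPM in WT replicates 1 to 3 and at 498, 419.6 and 369 CPM in CharmeKO replicates 1 to 3. The CharmeKO values all lay within the WT range, whose low end was WT replicate 2. The means were 412 ± 114 CPM (SD, n = 3) in WT and 429 ± 65.1 CPM (n = 3) in CharmeKO. The log2 fold change in edgeR's test was 0.06 (SE 0.20, adjusted p = 0.931), with a 95% confidence interval of 0.771 to 1.41 for the fold.

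Type XII, which cross-bridges fibrils in tissues under tension such as tendon, is encoded by *Col12a1* (ENSMUSG00000032332, chromosome 9). *Col12a1* was measured at 19.2, 11.3 and 28.0 CPM in WT and at 19.8, 20.3 and 22.3 CPM in CharmeKO. WT replicates 2 and 3 held the lowest and the highest value, so the WT spread of 8.32 CPM (SD, mean 19.5, n = 3) was wider than the 1.30 CPM of CharmeKO (mean 20.8, n = 3). The log2 fold change was 0.12 (SE 0.25, edgeR adjusted p = 0.884), with an interval of 0.743 to 1.59 for the fold.

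Type XVI, found at the edge of thin fibrils and with fibrillin microfibrils, is encoded by *Col16a1* (ENSMUSG00000040690, chromosome 4). *Col16a1* was measured at 157, 122 and 187 CPM in WT and at 136, 157 and 190.1 CPM in CharmeKO. The groups overlapped over most of their ranges, at 155 ± 32.7 CPM (SD, n = 3) and 161 ± 27.2 CPM (n = 3). The log2 fold change was 0.05 (SE 0.17, edgeR adjusted p = 0.924), with an interval of 0.801 to 1.35 for the fold.

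Type VIII is a short-chain collagen that forms hexagonal networks in vessel walls and beneath the corneal endothelium. Its alpha-1 chain is encoded by *Col8a1* (ENSMUSG00000068196, chromosome 16), measured at 322, 205 and 371 CPM in WT and at 322, 283 and 308 CPM in CharmeKO. The means were 299.7 ± 85.2 CPM (SD, n = 3) and 304 ± 19.8 CPM (n = 3), with the CharmeKO libraries inside the WT range. The log2 fold change was 0.02 (SE 0.19, edgeR adjusted p = 0.975), with an interval of 0.763 to 1.35 for the fold. *Col8a2*, which encodes the partner chain, lay at 10.3 ± 2.13 CPM in WT and 8.33 ± 0.962 CPM in CharmeKO (n = 3 each, log2 fold change −0.30, edgeR adjusted p = 0.575).

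The low values of *Col8a1*, *Col12a1*, *Col14a1* and *Col16a1* in WT were those of WT replicate 2, the library that stood apart. Without that library, the log2 fold changes of the 4 genes were −0.19, −0.16, −0.15 and −0.10, and none passed the threshold. The direction of the 4 differences thus changed without this library. It also changed for *Col8a1* (−0.02) and *Col14a1* (−0.06) without CharmeKO replicate 1, and for *Col16a1* (−0.08) without CharmeKO replicate 3. The intervals over all 6 libraries held folds both below and above 1.

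Types XIII and XXIII are transmembrane collagens of cell contacts and focal adhesions, whose extracellular part can be shed by furin-family proteases. *Col13a1* (ENSMUSG00000058806, chromosome 10) was measured at 3.95, 7.08 and 2.90 CPM in WT and at 4.99, 6.79 and 5.33 CPM in CharmeKO. WT replicate 2 was the highest library here, and the CharmeKO libraries again lay inside the WT range. The means were 4.64 ± 2.17 CPM (SD, n = 3) and 5.71 ± 0.955 CPM (n = 3), with a log2 fold change of 0.27 (SE 0.31, edgeR adjusted p = 0.785). *Col23a1* (ENSMUSG00000063564, chromosome 11) was measured at 6.61, 9.70 and 6.35 CPM in WT and at 6.95, 4.54 and 6.55 CPM in CharmeKO. The means were 7.55 ± 1.87 CPM (SD, n = 3) and 6.01 ± 1.29 CPM (n = 3), with overlapping groups and a log2 fold change of −0.34 (SE 0.25, edgeR adjusted p = 0.616). The intervals for the fold were 0.750 to 1.93 for *Col13a1* and 0.546 to 1.15 for *Col23a1*. Of the 4 furin-family protease genes, 0 passed the edgeR threshold and 1, *Furin* itself (log2 fold change −0.40), had an unadjusted p under 0.05, against 12.8% of all tested genes. The most abundant of them was *Pcsk6*, at 1317 ± 110.1 CPM in WT and 1264 ± 77.9 CPM in CharmeKO (n = 3 each).

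Type VII forms the anchoring fibrils that tie the basement membrane of skin to the dermis. *Col7a1* (ENSMUSG00000025650, chromosome 9) had the fewest reads of the 8 genes over the 6 libraries, with 123, 61 and 37 counts in WT and 49, 48 and 74 in CharmeKO. These correspond to 2.89, 2.32 and 3.98 CPM and to 1.71, 1.96 and 2.43 CPM. CharmeKO replicate 3 lay above WT replicate 2, so the groups overlapped. The means were 3.06 ± 0.843 CPM (SD, n = 3) and 2.04 ± 0.367 CPM (n = 3), with a log2 fold change of −0.56 (SE 0.34, edgeR adjusted p = 0.524) and an interval of 0.406 to 1.13 for the fold. An exon of *Col7a1* overlaps the microRNA gene *Mir711* on the same strand, and for the other 7 genes the annotation holds 0 exon overlaps on either strand.

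Type XXVI is a secreted collagen with an EMI domain, a cysteine-rich domain of matrix glycoproteins, and was first described in testis and ovary. *Col26a1* (ENSMUSG00000004415, chromosome 5) was measured at 26.4, 29.2 and 34.1 CPM in WT and at 9.54, 8.88 and 18.2 CPM in CharmeKO. All 3 CharmeKO libraries lay below all 3 WT libraries, CharmeKO replicate 3 being the closest to them. The groups failed to overlap in this direction for 8.59% of all tested genes and for 1 of the 8 minor collagens, and in the higher direction for 9.57% of all tested genes and 0 of the 8. The means were 29.9 ± 3.90 CPM (SD, n = 3) in WT and 12.2 ± 5.18 CPM (n = 3) in CharmeKO. *Col26a1* fell to 41.1% of the WT level in edgeR's fit, a log2 fold change of −1.28 (SE 0.24, 95% confidence interval −1.82 to −0.75, adjusted p = 0.0348). DESeq2, which called 2.50% of all tested genes in either direction and 1.52% lower, called 1 of the 8, and for *Col26a1* it gave a log2 fold change of −1.30 and an adjusted p of 4.22e-05. Beneath these values stood 1123, 768 and 317 reads in WT and 273, 217 and 552 reads in CharmeKO.

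The edgeR call of *Col26a1* was lost on leaving out WT replicate 1 (log2 fold change −1.37, adjusted p = 0.0756), WT replicate 3 (−1.19, 0.129), CharmeKO replicate 1 (−1.13, 0.211) or CharmeKO replicate 2 (−1.10, 0.184). It held without WT replicate 2 (−1.30, 0.0264) and without CharmeKO replicate 3 (−1.69, 0.00224). The direction was lower in CharmeKO in all of these fits. Among the 3 libraries with high *Xist*, 1 WT and 2 CharmeKO, the difference of mean log2 CPM was −1.47, and among the 3 with low *Xist*, 2 WT and 1 CharmeKO, it was −0.78, without a test. With the *Xist* level as a covariate in edgeR's model, the log2 fold change was −1.17 (adjusted p = 0.00786).

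**Figure D3:**
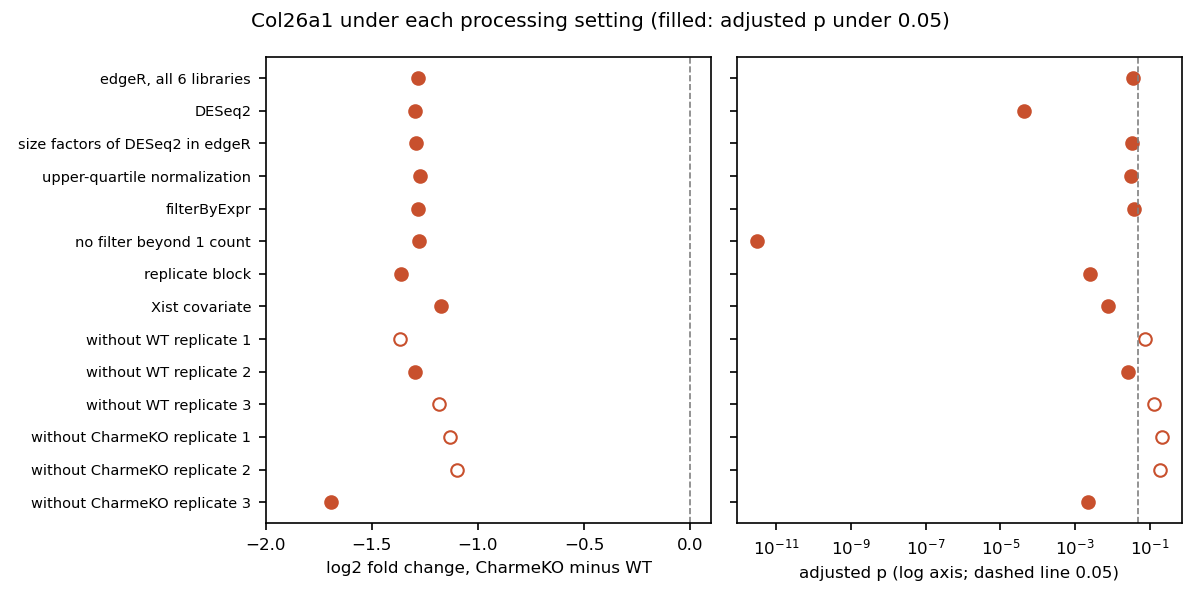
*Col26a1* in CharmeKO against WT under each processing setting, as the log2 fold change (left, dashed line at 0) and the adjusted p (right, log axis, dashed line at 0.05), with filled circles past the threshold. The log2 fold change stays between −1.69 and −1.10, while the adjusted p crosses the threshold on leaving out any of 4 libraries.

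The summed levels of some cell type marker lists did not overlap between the groups. The 7 epicardial and mesothelial genes, all detected, summed to 57.9 to 75.4 CPM in WT and to 34.1 to 41.5 CPM in CharmeKO, and *Wt1* among them passed the edgeR threshold lower. Without *Wt1*, the other 6 genes summed to 5.31 to 21.8 CPM in WT and to 0.768 to 9.21 CPM in CharmeKO, which overlap. All 7 had a log2 fold change below 0. In edgeR's test 4 of the 7 had an unadjusted p under 0.05 and lower values, against 6.87% of all tested genes. The 7 cardiomyocyte genes, all detected, summed to 204 to 265 CPM in WT and to 299.8 to 471 CPM in CharmeKO, with *Myh6* and *Tnni3* past the threshold higher. The other 5 of these genes summed to 115 to 177 CPM in WT and to 176 to 276 CPM in CharmeKO, which overlap narrowly. All 7 had a log2 fold change above 0. In edgeR's test 6 of the 7 had an unadjusted p under 0.05 and higher values, against 932 of all 15789 tested genes. The 5 tested Schwann cell genes summed to 20.98 to 22.03 CPM in WT and to 23.6 to 26.4 CPM in CharmeKO, without overlap. *Cdh19* held most of this sum, at 11.8 to 13.8 CPM in WT and 13.7 to 18.2 CPM in CharmeKO, which overlap. Of the 5 genes, 3 had a log2 fold change above 0 and 2 below, and 0 passed the edgeR threshold. *S100b* went the other way, at 1.08 to 1.45 CPM in WT and 0.592 to 0.818 CPM in CharmeKO. The sums of the fibroblast, endothelial, pericyte, smooth muscle, leukocyte, erythroid and valve genes overlapped between the groups. In these lists 0 genes passed the edgeR threshold, but single genes could shift. The log2 fold change was above 0 for 7 of 9 endothelial and 5 of 5 smooth muscle genes. It was below 0 for 5 of 7 pericyte, 5 of 5 erythroid and 4 of 4 valve genes. The groups did not overlap for 4 endothelial and 2 smooth muscle genes, higher in CharmeKO, against 9.57% of all tested genes. The part of these cell types in the *Col26a1* difference was not tested.

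Each gene was also set against 6 fibroblast identity genes (*Pdgfra*, *Tcf21*, *Dpt*, *Pcolce*, *Lum* and *Dcn*) in the same library. These 6 summed to 5317 to 5534 CPM in WT and 6014 to 6218 CPM in CharmeKO, so the reference was itself higher in every CharmeKO library. *Dcn* within it lay at 2997 to 3395 CPM in WT and 3730 to 4045 CPM in CharmeKO. On the log2 ratio to this sum, *Col26a1* lay at −7.64, −7.48 and −7.32 in WT and at −9.28, −9.32 and −8.38 in CharmeKO, a difference of −1.51. The ratios of *Col7a1* (difference −0.66) and *Col23a1* (−0.49) were also lower in all 3 CharmeKO libraries than in any WT library. In CPM alone, without the reference, the groups overlapped for both genes. The ratio differences of *Col26a1*, *Col7a1* and *Col23a1* each had p = 0.1 in a two-sided exact permutation test, the smallest that 3 against 3 libraries allow. After adjustment over the 8 genes this p was 0.267. The ratios of the remaining 5 genes differed by −0.13 to 0.16 and overlapped between the groups, with exact permutation p between 0.6 and 0.9.

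The other collagen classes, the fibrillar collagens first, were read from the same fit. Of 11 fibrillar genes, 10 were tested and 0 passed the edgeR threshold, while 7 had an unadjusted p under 0.05 with lower values in CharmeKO, against 6.87% of all tested genes. Their median log2 fold change was −0.63. DESeq2 called 2 of the 10 lower, against 1.52% of all tested genes. Among the 2 was *Col1a1* (log2 fold change −0.78, DESeq2 adjusted p = 0.0102, edgeR adjusted p = 0.189). *Col3a1*, the most abundant, lay at 7462 ± 1969.7 CPM in WT and 4891 ± 1706 CPM in CharmeKO (n = 3 each, log2 fold change −0.61, edgeR adjusted p = 0.347). The network and beaded collagens had 2 of 13 tested genes past the threshold lower, *Col4a3* (log2 fold change −0.89, edgeR adjusted p = 0.0459) and *Col4a4* (−1.10, 0.0305), and a median of −0.68. Of these 13 genes, 12 had an unadjusted p under 0.05 in edgeR with lower values in CharmeKO, against 6.87% of all tested genes. DESeq2 called 7 of the 13 lower. The 9 tested genes of other minor collagen families had a median of −0.30 and 0 calls in edgeR, with *Col9a2* (log2 fold change −1.28, edgeR adjusted p = 0.0508) and *Col20a1* (−0.63, 0.254) at an unadjusted p under 0.05 and lower. DESeq2 called 1 of the 9, *Col9a2*. Leaving out WT replicate 2 gave 10 calls among the collagen genes outside the group of 8, leaving out CharmeKO replicate 3 gave 9, leaving out any other library gave 0, and DESeq2 with all libraries gave 10. In all, 25 of the 32 tested collagen genes outside the group of 8 had a log2 fold change below 0, as did 3 of the 8 and 7700 of all 15789 tested genes. Without WT replicate 2, the counts were 24 of 32 and 7 of 8, and the difference between these counts was not tested.

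**Figure D4:**
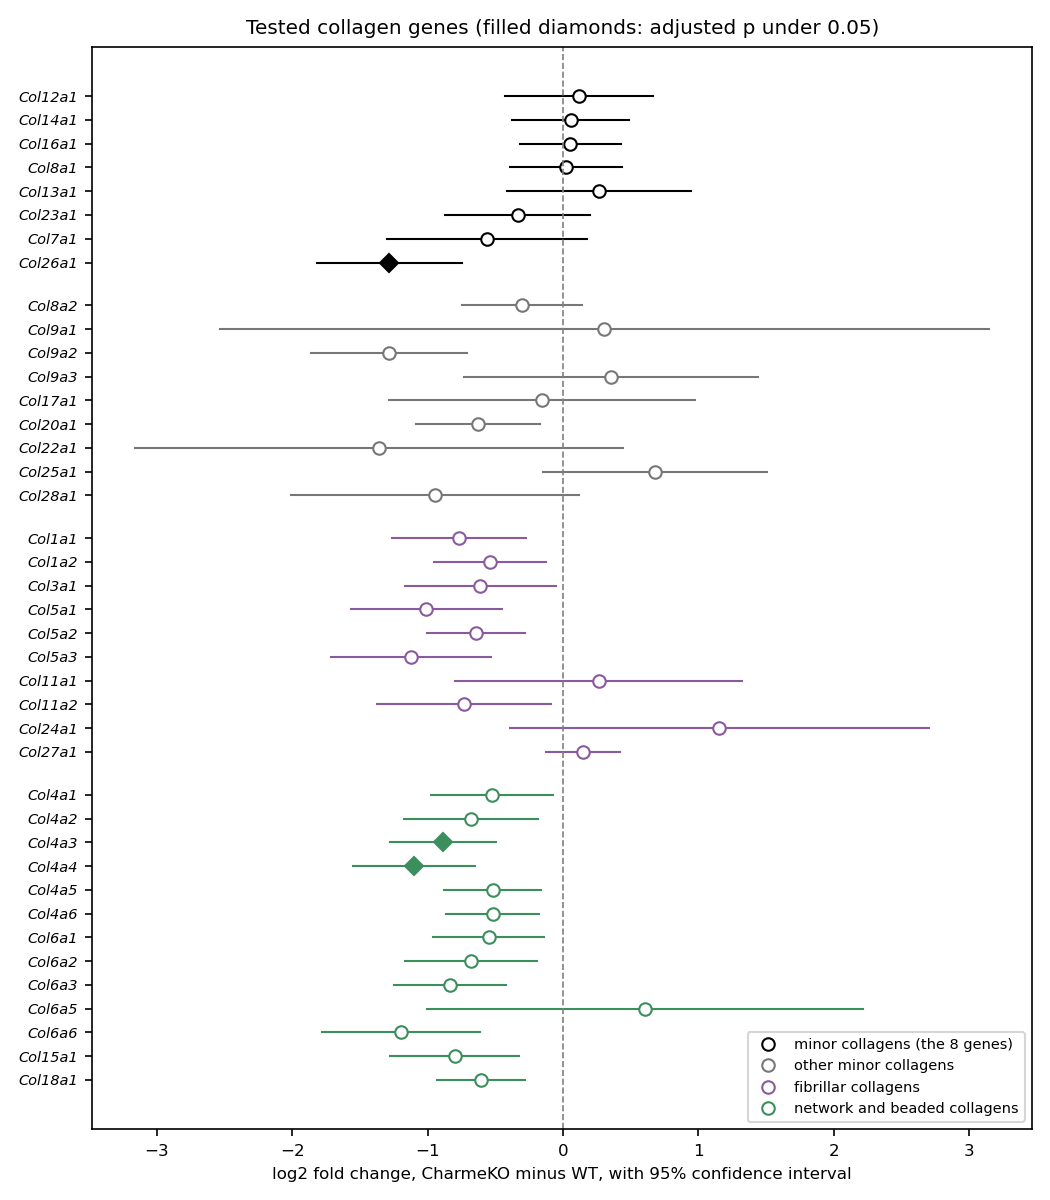
Log2 fold change of CharmeKO against WT with 95% confidence interval (edgeR) for the 8 minor collagens (black) and the 32 other tested collagen genes, by class. Filled diamonds passed the adjusted threshold of 0.05. Of the 8 genes, 3 lie below 0 (*Col7a1*, *Col23a1* and *Col26a1*) and 5 above it, with *Col8a1*, *Col12a1*, *Col14a1* and *Col16a1* near 0. Of 10 fibrillar genes, 7 lie below 0.

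The difference between the minor and the fibrillar collagens was measured within each library as the log2 ratio of each gene to the sum of *Col1a1*, *Col1a2* and *Col3a1*. That sum was 16839, 11555 and 17736 CPM in WT and 8963, 7394 and 13427 CPM in CharmeKO. *Col8a1* had ratios of −5.70, −5.81 and −5.58 in WT and of −4.80, −4.71 and −5.45 in CharmeKO, a difference of 0.71. *Col16a1* had ratios of −6.74, −6.56 and −6.56 in WT and of −6.04, −5.55 and −6.14 in CharmeKO, which also differed by 0.71. *Col12a1* differed by 0.83, from −9.93 to −9.28 in WT and from −9.20 to −8.48 in CharmeKO. For these 3 genes all CharmeKO libraries lay above all WT libraries, with CharmeKO replicate 3 the closest to WT. In CPM alone, without this reference, the groups overlapped for *Col8a1*, *Col12a1* and *Col16a1* (log2 fold changes 0.02, 0.12 and 0.05). The reference genes *Col1a1*, *Col1a2* and *Col3a1* had log2 fold changes of −0.77, −0.54 and −0.61. A gene without a change would thus also rise on this ratio, and the share of all tested genes that separate on it was not computed. *Col14a1* differed by 0.74 with overlapping groups, since CharmeKO replicate 3, at −5.18, lay below WT replicate 1, at −5.07. *Col26a1* differed in the other direction, by −0.67, and its groups did not overlap. The exact permutation p was 0.1 for *Col8a1*, *Col12a1*, *Col16a1* and *Col26a1* and 0.2 for *Col14a1*, and 0.2 and 0.32 after adjustment over the 8 genes. No difference in this ratio could therefore pass 0.05 at this number of libraries. The ratios of *Col7a1*, *Col13a1* and *Col23a1* differed by 0.18, 0.99 and 0.35 and overlapped.

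The 8 genes made up 2.27%, 1.84% and 2.04% of the counts on all 44 collagen genes in WT and 4.03%, 3.86% and 2.40% in CharmeKO. Every CharmeKO library lay above every WT library. Per kb of transcript the shares were 2.38%, 2.00% and 2.19% in WT and 4.11%, 4.02% and 2.54% in CharmeKO. The counts of *Col8a1*, *Col14a1* and *Col16a1* hold most of the numerator, and the fibrillar, network and beaded genes hold most of the denominator. In CPM the groups overlapped for these 3 numerator genes (log2 fold changes 0.02, 0.06 and 0.05). Of the 32 other tested collagen genes, 25 had a log2 fold change below 0 and 7 above. The higher share thus does not show a higher level of the 8 genes.

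**Figure D5:**
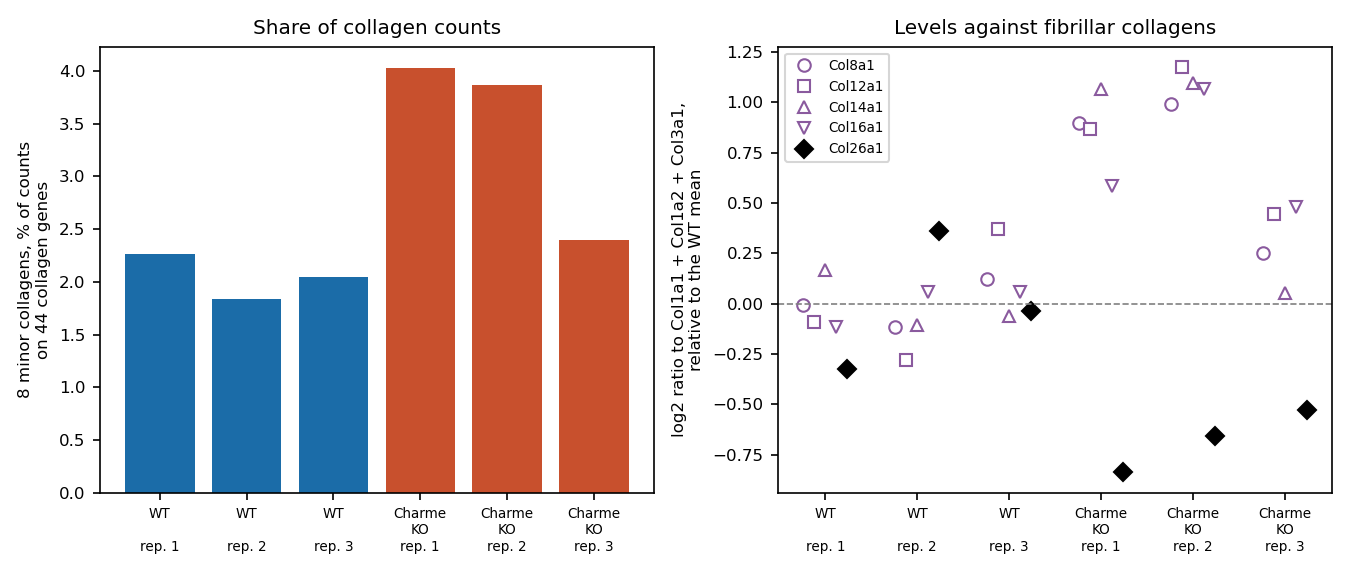
Left, the share of the counts on 44 collagen genes taken by the 8 minor collagens in each library, in percent, from 1.84% to 2.27% in WT (blue) and from 2.40% to 4.03% in CharmeKO (red). Right, the log2 ratio of 5 of the genes to *Col1a1*, *Col1a2* and *Col3a1* in each library, relative to the gene's WT mean (dashed line), with *Col26a1* (black) below the line in all 3 CharmeKO libraries and the other 4 genes (purple) above it.

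Genes that act with these collagens were examined likewise. Of 32 genes for partners on the fibril surface or at anchoring fibrils, for receptors and for proteases, 31 were tested and 0 passed the edgeR threshold in either direction. At an unadjusted p under 0.05 in edgeR, 5 were lower and 3 higher, against 12.8% of all tested genes in either direction. DESeq2 called 3 lower and 1 higher, against 1.52% of all tested genes lower and 2.50% in either direction. Named after their values were seen, these were *Fmod*, which encodes the fibril-binding proteoglycan fibromodulin, *Plec*, which encodes plectin, and *Bmp1*, a procollagen protease, all lower, and its relative *Tll2*, higher. *Plec* lay at 531 ± 67.7 CPM in WT and 344 ± 10.7 CPM in CharmeKO (n = 3 each, log2 fold change −0.63, edgeR adjusted p = 0.0583). The median log2 fold change over the 31 tested genes was −0.18. *Tnxb*, encoding tenascin-X, which binds type XII and XIV collagens, had the highest mean over the 6 libraries among the fibril surface partners, at 4353 ± 596 CPM in WT and 3123 ± 913 CPM in CharmeKO (n = 3 each, edgeR adjusted p = 0.351), below *Dcn* in CharmeKO replicates 1 and 2. *Dst*, encoding the cytoskeletal linker dystonin, was the most abundant gene of the anchoring fibril and hemidesmosome list, at 498 ± 42.7 CPM and 490.2 ± 20.6 CPM (log2 fold change −0.02, edgeR adjusted p = 0.960). *Itgb1*, encoding the beta-1 chain of the collagen-binding integrins, was the most abundant receptor gene, at 990.1 ± 141.5 CPM and 1041 ± 8.18 CPM. *Pcolce*, an enhancer of procollagen processing, lay at 452 ± 96.2 CPM and 353 ± 82.7 CPM.

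Over the 6 libraries the 8 genes followed different patterns. *Col8a1* and *Col12a1* had a Pearson r of 0.94 on log2 CPM, *Col12a1* and *Col16a1* of 0.86 and *Col8a1* and *Col14a1* of 0.84. *Col7a1* and *Col26a1* had an r of 0.84, and *Col13a1* ran against *Col8a1* with an r of −0.83. WT replicate 2 was the lowest library for 4 of the genes and the highest for 2, and WT replicate 3 was the highest for 4. These correlations rest on 6 libraries that differ in genotype and depth and are given as a description. Among 10443 tested genes with a mean of at least 5 CPM, the patterns most like that of *Col26a1* were those of *Map7d1* and *Cdr2l*, both with r = 0.997, and the patterns most like that of *Col12a1* were those of *BC031181* (r = 0.995) and *Itgb1* (0.989). The closest were *Mical2* and *Hdlbp* for *Col7a1*, *Fubp1* and *Hspa13* for *Col8a1*, *H2-T23* and *Ddx41* for *Col13a1*, and *Rab7b* and *Cenpc1* for *Col14a1*. For *Col16a1* they were *Ap3s1* and *Dnajb11*, and for *Col23a1* *Pnpla7* and *Sox13*, all with r of at least 0.98.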

How the data were processed

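mRNA of native CFs from 3 WT and 3 CharmeKO samples was sequenced from poly(A)-selected, strand-specific libraries. Per the methods, the authors filtered reads by quality, aligned them with STAR to the mouse genome (GRCm39 in the submitters' processing notes, which also list GRCh38) and counted reads per gene in the reverse-strand setting on an Ensembl annotation with *Charme* added. The deposited values are raw counts per gene for each library, with no normalization. Strand was kept in counting, and reads of multigene copies could not be traced further.

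A gene was kept with 10 or more counts in 2 or more libraries. The study states a filter at the same numbers, in wording that can also be read as dropping any gene that is low in 2 samples. Tests used edgeR 4.0.16 in R 4.3.3 with TMM factors and no covariate, on all 6 libraries, and standard errors came from the F statistic. The biological coefficient of variation was 20.2%. The procedure was tested on simulated data. The study's own tool, DESeq2 (1.42.0 here), served as an alternative, with DESeq2 size factors, upper-quartile scaling, edgeR's filterByExpr, no filter beyond 1 count, a replicate block, the log2 CPM of *Xist* as a covariate and each library left out in turn. Ratios used log2(CPM + 0.5), with 0.1 as the alternative pseudocount. No library duplicated another, and 0 columns of other samples were present.

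The members and gene lists were chosen with earlier results of these data known. Genes named are the 8 minor collagens, *Charme*, *Xist*, *Ddx3y*, called genes of each list or else its most abundant gene, at most 3 markers of a cell type, and the 2 genes closest in pattern to each member by Pearson r. Lengths and coding sequences came from GENCODE M21 on GRCm38, another build than that of the counts, so no coordinates are given. Figures were drawn with matplotlib 3.10.9.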

Additional observations from a re-analysis of the deposited data

How the results depend on the processing

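*Col26a1* kept its direction in all 13 alternatives, with log2 fold changes from −1.69 to −1.10 on leaving out single libraries, and it was the only call among the 8 genes in the alternatives with all 6 libraries. Leaving out a library left 0 to 1 of the 8 genes past the threshold lower. The edgeR counts over all genes, 65 lower and 66 higher, became 240 and 154 with DESeq2, 446 and 253 with no filter beyond 1 count, and 26 to 218 and 35 to 131 on leaving out a library, highest without WT replicate 2 and lowest without CharmeKO replicate 1. The 2 lower calls among other collagens became 10 with DESeq2, 18 without the filter and 0 to 10 on leaving out a library. The 0 calls among the 31 partner, receptor and protease genes became 3 lower and 1 higher with DESeq2 and without the filter, and 0 to 3 lower on leaving out a library (3 without WT replicate 2, 1 without CharmeKO replicate 3). With the replicate block, calls numbered 187 lower and 115 higher over all genes, 14 lower among other collagens, and 3 lower and 1 higher among the partners, and *Col26a1* had −1.36 (adjusted p = 0.00246). The labels do not say whether the numbers pair the samples. Deviations of same-numbered libraries correlated at 0.181, 0.0343 and 0.143. Each WT library correlated best with its own number, but CharmeKO replicate 2 correlated slightly better with WT replicate 1 (0.0356). A pairing by number is thus not settled.

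Differences near 0 changed sign. Leaving out single libraries gave −0.19 to 0.20 for *Col8a1*, −0.16 to 0.44 for *Col12a1*, −0.15 to 0.23 for *Col14a1* and −0.10 to 0.21 for *Col16a1*, and the *Xist* covariate gave −0.033 for *Col14a1*. Against fibrillar collagens in place of fibroblast genes, the *Col26a1* difference was −0.67 rather than −1.51. The split by *Xist* was chosen after seeing the data. The causes of these shifts were not tested. The low counts of *Col7a1* and the shallow WT replicate 3 limit precision.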
